A study of Homo sapiens with 6 samples.

Results

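Collagen genes encode the chains of the collagens, matrix and membrane proteins that assemble as trimers whose helical part repeats the pattern Gly-X-Y, with glycine opening each triplet. The 44 rows of the count table whose symbol follows the pattern of a collagen chain (COL, a type number, A and a chain number) were taken as members, out of 27469 genes with values. The matching rule used symbols alone and no measured value. The cells were HMC3, an established human line derived from fetal microglia and immortalised with the SV40 large T antigen, in 2 groups of 3 libraries. The groups were cells labelled Control, with no agent named, and cells given interleukin-33 (IL-33), a cytokine of the interleukin-1 family, for 24 h at a dose that the labels do not give. No genotype change or further agent is given for either group, and all 6 libraries come from the same line. RNA was read as short tags near the 3′ end of polyadenylated transcripts. Each transcript yields a tag whatever its length, so that levels in CPM (counts scaled to 1000000 per library) were compared between genes without division by length.

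Fibrillar collagens (types I, II, III, V, XI, XXIV and XXVII) form the rope-like fibrils of connective tissue, with type I as the main component and types V and XI as minor chains that set fibril diameter. Type IV makes the network of basement membranes, type VI beaded microfilaments around cells, type VII the anchoring fibrils below epithelia, and types VIII and X short-chain networks. FACITs lie on the surface of fibrils, multiplexins are proteoglycans of basement membrane zones, and transmembrane collagens sit in the cell membrane. In the brain, type IV in the vascular basement membrane is the best known collagen, made by endothelial cells, pericytes and astrocytes, while fibrillar collagens come mainly from fibroblasts of the meninges and vessels.

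The libraries held 5739947 to 10217529 counts, and the lowest total was that of Control 3. That library also stood apart on the first principal component of the tested genes, at 55.0 against -18.0 to 0.86 for the other 5. The label was checked against markers: of 11 microglial genes 6 had 0 counts in all libraries, among them ITGAM, P2RY12, TMEM119 and SPI1, and the summed level of the 11 was 2.95 to 6.88 CPM. CD68 (2.75 CPM) and CD14 (1.43 CPM) were tested and 0 passed by edgeR, while CSF1R had 25 counts and could not be tested. Of 10 fibroblast and mural genes 5 were tested and 0 passed by edgeR: TAGLN (1484 CPM), THY1 (210 CPM), PDGFRB (36.4 CPM), PDGFRA (1.86 CPM) and RGS5 (1.52 CPM). LUM, POSTN and ACTA2 had 0 counts, and FAP had 6. The summed level of these 10 was 1669 to 1769 CPM in Control against 1647 to 1883 CPM after IL-33, nearly all of it TAGLN and THY1. PDGFRA, with 100 counts in all, was higher in every IL-33 library, as were 4.54% of all tested genes. It measured 0.905 to 2.04 CPM in Control and 2.13 to 2.44 CPM after IL-33 (unadjusted p 0.335 by edgeR's quasi-likelihood test). The 14 counts of DCN all came from IL-33 libraries. So did the 9 of AIF1, a microglial marker, and the 20 of VWF and 2 of PECAM1, endothelial markers. Of the other endothelial markers, CDH5 had 4 counts, at 0.361 CPM in Control 2 and 0.107 CPM in IL-33 1, and TEK had 0. The 6 counts of FAP and the 2 of PTPRC, a microglial marker, came from Control alone. The log2 fold change was 0.03 in TAGLN, -0.06 in THY1 and -0.47 in RGS5. PDGFRB was at 31.9 ± 2.43 CPM in Control and 40.9 ± 7.03 CPM after IL-33 (SD, n = 3 each), with overlapping groups (unadjusted p 0.0513 in edgeR). The part of these genes in the collagen levels was not tested. The labels do not say that the libraries are separate cultures, so the spread between them may be technical.

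Of the 44 collagens, 18 passed the filter on low counts and could be tested, and 14 of these reached a mean of 10 CPM. Another 14 rose above 3 counts in a library but could not be tested, 5 had at most 3 counts in every library, and 7 had 0 counts throughout. A count of 0 allows up to 0.293 CPM in the deepest library and 0.543 CPM in the shallowest. The 7 were COL3A1, COL5A3, COL24A1, COL6A5, COL9A1, COL21A1 and COL28A1. Low or absent counts do not show by themselves that a transcript was lacking. PPIB, a cyclophilin of the endoplasmic reticulum that secretory cells express widely, had 17 counts in all, and its 3′ end is covered by SNX22 on the opposite strand (151 counts). Another gene likewise covers the 3′ end of 5 collagens, COL10A1, COL16A1, COL18A1, COL4A3 and COL9A3, and what this did to their counts was not tested.

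Collagen transcripts together took 0.178% ± 0.00829 of the counts in Control against 0.182% ± 0.0101 after IL-33 (SD, n = 3 each). Per library the share was 0.182%, 0.183% and 0.168% in Control against 0.181%, 0.173% and 0.193% after IL-33. The groups overlapped, with Control 3 lowest and IL-33 3 highest. COL1A1 and COL8A1 made up between 63.4% and 67.5% of all collagen counts in every library. The balance between these 2 moved more than their sum: COL1A1 gave 32.4% of the collagen counts and COL8A1 34.2% in Control 3, against 36.7% to 45.0% and 22.5% to 26.7% in the other 5 libraries.

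**Figure D1:**
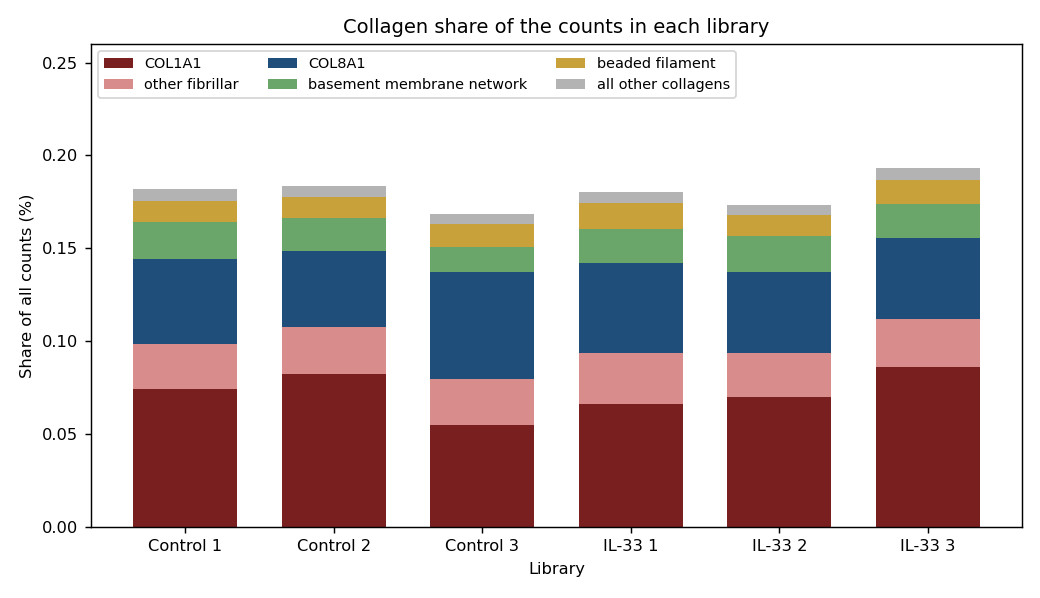
Share of all counts (%, vertical axis) taken by collagen genes in each of the 6 libraries, stacked by COL1A1, the other fibrillar chains, COL8A1, the basement membrane and beaded filament classes, and all other collagens. The whole bars lie between 0.168% and 0.193%, and Control 3 has the smallest COL1A1 and the tallest COL8A1 segment.

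No collagen passed the test of IL-33 against Control. Of 18 tested collagens 0 passed edgeR's quasi-likelihood test at a Benjamini-Hochberg adjusted p of 0.05, as for 0 of all 12125 genes tested (0%), and DESeq2 and limma-voom also called 0 collagens. At an unadjusted p under 0.05 there were 2, COL7A1 and COL13A1, beside 2.43% of all genes, and DESeq2 and limma-voom gave the same 2. All IL-33 values lay above all Control values in 2 of the tested collagens, COL7A1 and COL4A5, beside 4.54% of all genes, and in 0 of the 18 did they lie below, beside 3.51%. The log2 fold change was above 0 in 13 of 18 collagens with a median of 0.06, against 48.9% of all genes with a median of -0.01. Without Control 3, 11 of 22 tested collagens lay above 0, with a median of -0.01. In that fit edgeR called 0 collagens, where 0.0476% of genes were called, and had 1 at an unadjusted p under 0.05 (COL6A2), where 6.3% of genes did. The 95% interval of the fold change stayed within -1 to 1 on the log2 scale for 14 of 18 collagens, against 73.4% of all genes.

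**Figure D2:**
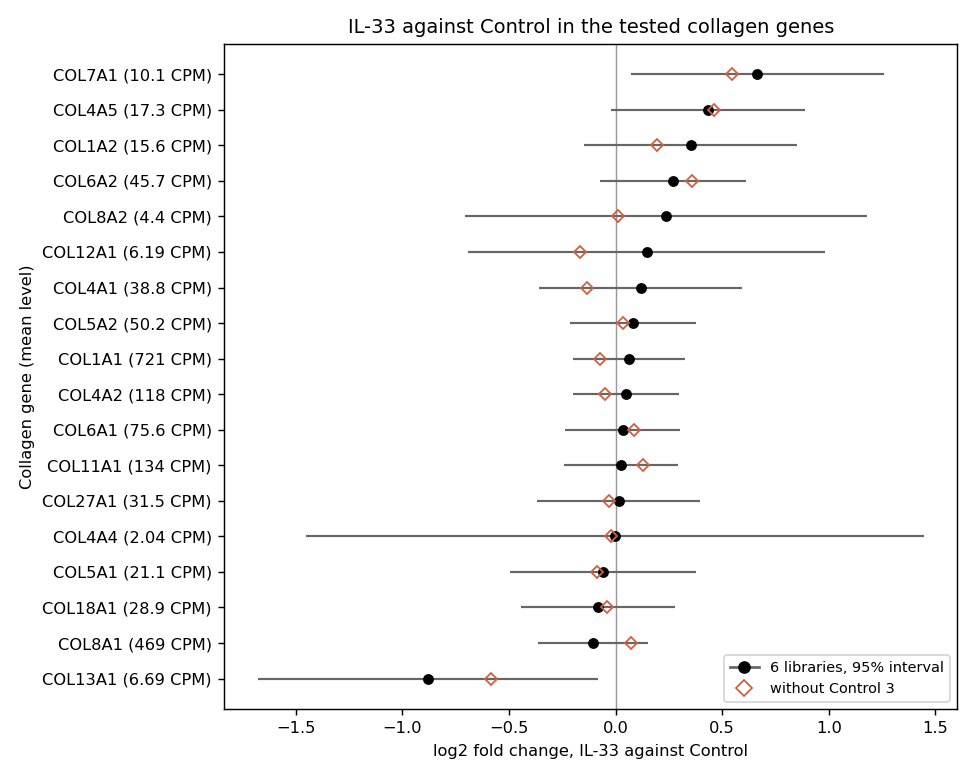
log2 fold change of IL-33 against Control (horizontal axis) for the 18 tested collagens, ordered by value, with the mean level beside each symbol; black points and lines are the fit of 6 libraries with its 95% interval, open diamonds the fit without Control 3. The intervals of 16 genes include 0; COL7A1 and COL13A1 are the exceptions, and by edgeR's quasi-likelihood test their adjusted p is 0.999 each.

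COL1A1 was the most abundant collagen transcript, and its partner chain COL1A2 was far lower. Type I collagen normally combines more COL1A1 than COL1A2 chains in each trimer. COL1A1 (chromosome 17, 50183289 to 50201632, minus strand, GRCh38) measured 731, 819 and 567 CPM in the Control libraries and 674, 696 and 842 CPM with IL-33, and ranked 167 among all genes by mean level. The groups overlapped, with the lowest value in Control 3, and the log2 fold change was 0.06 ± 0.12 (SE, n = 3 each). COL1A2 (chromosome 7, 94394561 to 94431232, plus strand) measured 14.9, 15.7 and 10.3 CPM in Control against 14.9, 18.6 and 19.2 CPM after IL-33. Its level was also lowest in Control 3, and its log2 fold change was 0.35 ± 0.24.

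The counts of COL1A1 were 37.5 to 55.0 times those of COL1A2 in every library. The ratio was 49.0, 52.0 and 55.0 in Control against 45.2, 37.5 and 43.8 after IL-33, so that the groups did not overlap and the ratio was lower in the 3 IL-33 libraries, with or without Control 3. Ratios were formed for all 153 pairs of tested collagens, and in 24 of them (15.7%) the groups did not overlap. The share over pairs of all tested genes was not determined. Of these 24 pairs, 16 held COL7A1 or COL4A5, the tested collagens whose own groups were apart. Among the 120 pairs without them, a split made after the values were seen, 8 were apart (6.67%), COL1A1 with COL1A2 among them. In GENCODE the representative transcripts carry 3′ untranslated regions of 2213 bases (COL1A1) and 839 bases (COL1A2), and neither gene has another gene over its 3′ end.

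The other fibrillar chains followed at lower levels. COL11A1, a minor fibril chain of cartilage and eye, measured 114, 133 and 152 CPM in Control against 156, 118 and 131 CPM after IL-33. It stood above both type V chains in every library, while its usual cartilage partners were near the limit, with 1 count for COL2A1 and 16 for COL11A2 over all libraries. COL11A1 had a log2 fold change of 0.03 ± 0.13. COL5A2 was steady at 48.8, 52.1 and 45.4 CPM in Control against 53.9, 52.0 and 49.0 CPM after IL-33 (log2 fold change 0.08 ± 0.14). COL5A1 measured 21.6 ± 3.95 CPM in Control against 20.7 ± 2.48 CPM after IL-33 (SD, n = 3 each), with a log2 fold change of -0.06 ± 0.21. The counts of COL5A2 were 1.89 to 2.89 times those of COL5A1, whereas the most common type V trimer holds more COL5A1 than COL5A2 chains. COL27A1, a fibrillar chain of cartilage with a shorter helix, lay at 31.3 ± 4.75 and 31.8 ± 4.90 CPM (log2 fold change 0.01 ± 0.18).

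**Figure D3:**
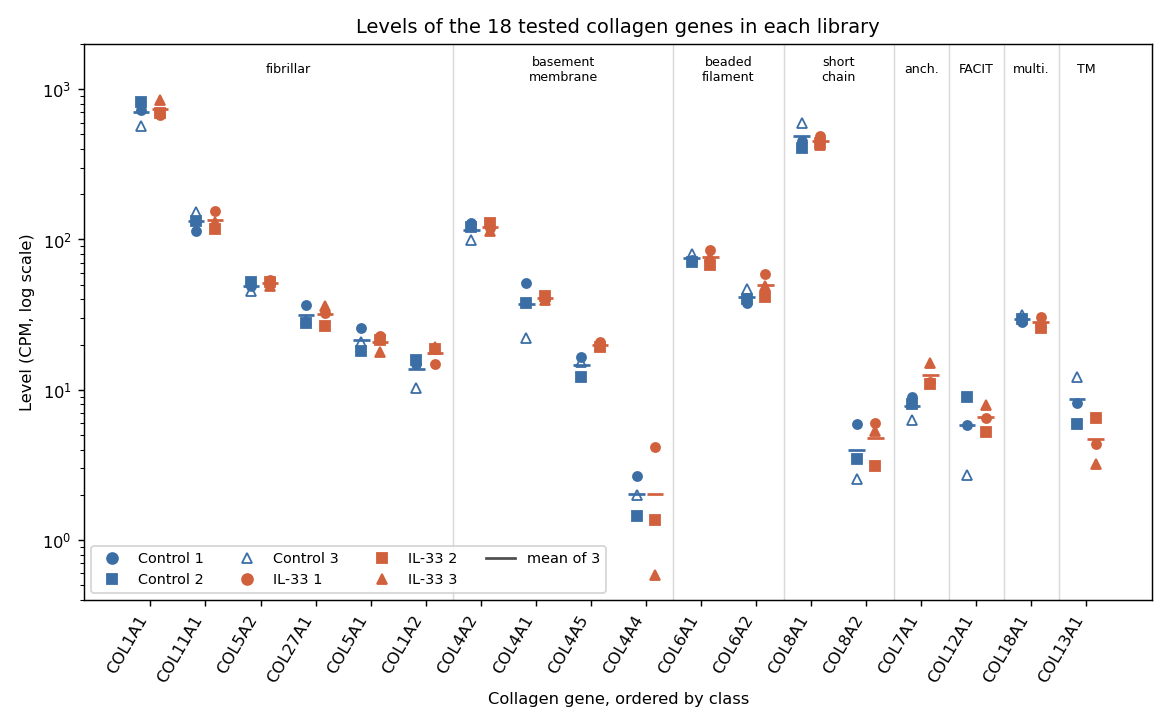
Level in CPM (logarithmic vertical axis) of the 18 tested collagens in each library, grouped by class (anch., anchoring fibril; multi., multiplexin; TM, transmembrane); blue points are Control, orange points IL-33, open triangles Control 3, and lines the mean of 3 libraries. Levels span from 2.04 CPM (COL4A4) to 721 CPM (COL1A1), and the groups overlap in 16 of 18 genes.

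COL3A1, the type III chain that fibroblasts usually make together with type I, had no counts. COL3A1 lies next to COL5A2 on chromosome 2 (188974320 to 189012746 and 189031896 to 189225312), transcribed from the opposite strand. COL5A2 was counted in every library at 251 to 532 counts and COL3A1 in none.

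Fibrillar genes share an exon structure that the choice of members did not use. Runs of codon triplets that each open with a GGN codon, which encodes glycine, were counted in 1 representative transcript per gene. The longest uninterrupted run was 338 triplets in COL1A1, COL5A1 and COL11A1 and 339 in COL1A2 and COL5A2, while it was 217 in COL27A1, 60 in COL8A1 and 40 in COL4A1. COL1A1 has 21 coding exons of exactly 54 bases and COL11A1 has 31, against 2 in COL4A1 and 0 in COL8A1. The 7 genes at 0 counts include COL3A1 (343 triplets) and COL5A3 (337), so that long-helix genes stood at both ends of the range of levels.

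COL8A1 was the second most abundant collagen, and its partner COL8A2 was at the lower edge of the tested range. Type VIII is a short-chain collagen of vessel walls and of the basement membrane behind the cornea. COL8A1 (chromosome 3, 99638475 to 99799226, plus strand) measured 451, 409 and 599 CPM in Control against 490, 438 and 427 CPM after IL-33, with a log2 fold change of -0.10 ± 0.12. Control 3 was highest here, where it was lowest in COL1A1, and without it the fold change of COL8A1 was 0.07. COL8A2 measured 5.96, 3.49 and 2.53 CPM in Control against 5.97, 3.12 and 5.30 CPM after IL-33 (log2 fold change 0.24 ± 0.45). The counts of COL8A1 were 75.7 to 236 times those of COL8A2, the highest ratio again in Control 3. COL10A1, the collagen of hypertrophic cartilage and the nearest relative of type VIII, had 4 counts in all.

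Type IV chains are encoded in head-to-head pairs, and within each pair the levels were unequal. COL4A2 (chromosome 13, 110305812 to 110513209, plus strand) measured 128, 121 and 99.0 CPM in Control against 119, 129 and 114 CPM after IL-33, with a log2 fold change of 0.05 ± 0.12. COL4A1 (chromosome 13, 110148963 to 110307233, minus strand) measured 51.1, 37.7 and 22.3 CPM in Control against 40.3, 41.8 and 39.7 CPM after IL-33, with a log2 fold change of 0.12 ± 0.22. Both were lowest in Control 3, and the SD of COL4A1 was 14.5 CPM in the Control group and 1.07 CPM in the IL-33 group. The counts of COL4A2 were 2.51 to 4.45 times those of COL4A1, whereas the common type IV trimer holds more COL4A1 chains. Without Control 3 the fold changes of COL4A1 and COL4A2 were -0.13 and -0.05.

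The sequences between the start sites of these pairs are shown because they are the stretches from which both genes of a pair are transcribed, in opposite directions. The start sites of COL4A1 and COL4A2 in RefSeq (GRCh38.p14) are 126 bases apart at chr13:110307158-110307283 (plus strand), and the whole stretch is given. By their GENCODE positions the genes COL4A1 and COL4A2 overlap. For the other 2 pairs, 418 and 379 bases apart, the 250 bases before the start of the member with more counts are given, at chr2:227164206-227164455 (minus strand) for COL4A4 and at chrX:108439588-108439837 (plus strand) for COL4A5. COL4A6 has a further RefSeq start site at 108438422, and the distance of 379 bases is from the site nearer to COL4A5. Capitals mark matches to CCAAT and to the GC box GGGCGG, on either strand.

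COL4A1 to COL4A2: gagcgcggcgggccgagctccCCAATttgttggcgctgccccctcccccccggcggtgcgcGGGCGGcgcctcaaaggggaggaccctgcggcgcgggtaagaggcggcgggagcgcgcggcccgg
COL4A4: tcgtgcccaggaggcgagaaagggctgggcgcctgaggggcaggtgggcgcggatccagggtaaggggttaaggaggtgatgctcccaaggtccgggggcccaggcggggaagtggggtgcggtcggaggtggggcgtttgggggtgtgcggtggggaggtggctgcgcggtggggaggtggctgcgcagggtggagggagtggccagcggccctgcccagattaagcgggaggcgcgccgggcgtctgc
COL4A5: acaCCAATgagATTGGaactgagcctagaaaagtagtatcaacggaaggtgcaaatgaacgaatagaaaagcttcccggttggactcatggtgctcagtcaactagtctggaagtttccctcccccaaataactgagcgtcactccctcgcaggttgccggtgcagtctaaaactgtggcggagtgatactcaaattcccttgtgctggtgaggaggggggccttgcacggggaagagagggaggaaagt

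The stretch between COL4A1 and COL4A2 is 80.2% G and C and holds 1 CCAAT and 1 GGGCGG. The COL4A4 stretch (72.8% G and C) holds neither motif, and the COL4A5 stretch (51.2%) holds CCAAT once on each strand. TATAAA, searched on both strands as well, is in none of the 3. Of all 35116 RefSeq promoter windows of 300 bases, 34.6% hold CCAAT, 45.0% GGGCGG and 11.5% TATAAA. Among the 44 such windows of the 32 collagens that have one, 14, 24 and 8 hold these motifs in the same order. The 3′ tags do not show which start site was used.

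COL4A5, a chain of kidney, skin and smooth muscle basement membranes, was higher in every IL-33 library than in any Control library, without passing the test. Its values were 16.6, 12.1 and 15.4 CPM in Control against 20.7, 19.2 and 19.7 CPM after IL-33. The log2 fold change was 0.43 ± 0.22, with an unadjusted p of 0.0612 and 0.999 after Benjamini-Hochberg adjustment over all genes in edgeR. Its head-to-head neighbour COL4A6 had 1, 14 and 4 counts in Control against 4, 20 and 6 after IL-33 and could not be tested. COL4A4, of the kidney glomerulus, measured 2.68, 1.44 and 1.99 CPM in Control against 4.16, 1.37 and 0.589 CPM after IL-33, too variable for a direction (95% interval -1.45 to 1.45). COL4A3 had 23 counts in all.

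Of the beaded filament chains, COL6A1 and COL6A2 could be tested, whereas COL6A3 was near 0. Type VI is built from COL6A1, COL6A2 and a further chain, most often COL6A3. COL6A1 (chromosome 21, 45981737 to 46005050, plus strand) measured 73.1, 70.7 and 80.5 CPM in Control against 84.7, 67.5 and 77.0 CPM after IL-33 (log2 fold change 0.03 ± 0.13). COL6A2, the next collagen along the same strand (46098097 to 46132849), measured 37.5, 40.4 and 46.5 CPM in Control against 59.3, 41.4 and 49.0 CPM after IL-33. Its log2 fold change was 0.27 ± 0.16, and its unadjusted p went from 0.114 to 0.0267 without Control 3, with an adjusted p of 0.721 by edgeR. The ratio of COL6A1 to COL6A2 counts was 1.95, 1.75 and 1.73 in Control against 1.43, 1.63 and 1.57 after IL-33. These groups did not overlap, as in 15.7% of all pairs of tested collagens and 6.67% of those without COL7A1 and COL4A5. COL6A3 had 6 counts, all in Control 3. COL6A6, an alternative to it, had 7, 11 and 0 counts in Control against 0, 16 and 7 after IL-33.

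**Figure D4:**
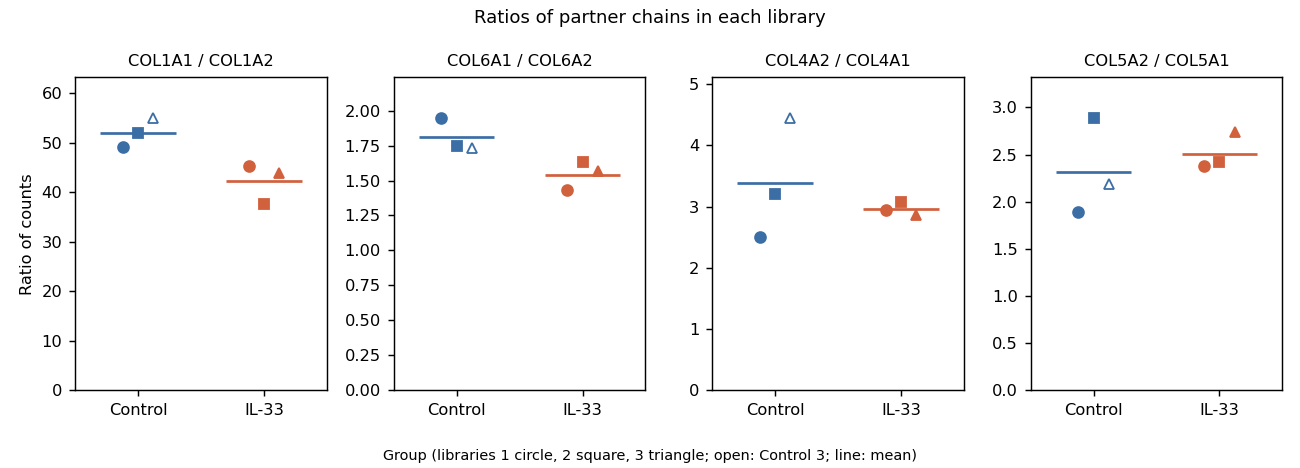
Ratio of raw counts (vertical axis, from 0) of partner chains of types I, VI, IV and V in each library, by group; circles, squares and triangles are libraries 1, 2 and 3, the open triangle is Control 3 and lines are means. COL1A1 to COL1A2 and COL6A1 to COL6A2 are lower in all IL-33 libraries (37.5 to 45.2 and 1.43 to 1.63) than in all Control libraries (49.0 to 55.0 and 1.73 to 1.95), while the groups overlap in the other 2 pairs. Groups are apart in 15.7% of all pairs of tested collagens, and the share over pairs of all tested genes was not determined.

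COL7A1, the chain of anchoring fibrils, had the smallest p among the collagens and did not pass. Its values were 8.94, 8.05 and 6.33 CPM in Control against 11.3, 10.9 and 15.1 CPM after IL-33, so that all IL-33 values were higher. The log2 fold change was 0.66 ± 0.28 (95% interval 0.07 to 1.26), with an unadjusted p of 0.0300 and 0.999 after Benjamini-Hochberg adjustment over all genes in edgeR. With a library left out the fold change ran from 0.50 to 0.78, and the unadjusted p by edgeR from 0.0300 to 0.144. Control 3 held the lowest value. COL7A1 rests on 35 to 128 counts per library. The summed level of 4 epithelial markers was 0.362 to 1.08 CPM in Control and 1.56 to 2.45 CPM after IL-33. It came from CDH1 and EPCAM (52 and 21 counts), with KRT5 and KRT14 at 0. Only the sum was apart, since the groups overlapped in CDH1 and in EPCAM, and neither could be tested. How often sums of other genes split in this way was not determined, and the part of this sum in the level of COL7A1 was not tested.

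COL13A1, a transmembrane collagen of adhesion sites and the neuromuscular junction, was the member with the most negative fold change and did not pass either. Its values were 8.14, 5.89 and 12.1 CPM in Control against 4.37, 6.45 and 3.18 CPM after IL-33. The groups overlapped, since IL-33 2 was above Control 2. The log2 fold change was -0.88 ± 0.38 (95% interval -1.68 to -0.08), with an unadjusted p of 0.0325 and 0.999 after Benjamini-Hochberg adjustment over all genes in edgeR. Control 3 held the highest value, and without it the fold change was -0.58. The other transmembrane collagens were sparse, with 36 counts for COL17A1, 6 for COL23A1 (all in Control 1) and 1 for COL25A1. COL17A1, a hemidesmosome collagen that could not be tested, had 1.49, 0.601 and 0.724 CPM in Control and 0.426, 0.293 and 0.589 CPM after IL-33. All its IL-33 values were lower in CPM, but the raw counts overlapped. They were 15, 5 and 4 in Control against 4, 3 and 5 after IL-33.

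COL18A1, a basement membrane multiplexin and the source of endostatin, was among the steadiest members. Its values were 28.1, 29.6 and 31.7 CPM in Control against 30.7, 25.9 and 27.7 CPM after IL-33 (log2 fold change -0.08 ± 0.17). SLC19A1, with 1031 counts, covers its 3′ end on the opposite strand. The related COL15A1 had 16, 8 and 1 counts in Control against 2, 9 and 16 after IL-33.

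Fibril-associated collagens (FACITs) had 10 members, of which only COL12A1 could be tested. COL12A1, a FACIT of tendon and ligament that binds type I fibrils, measured 5.86, 8.90 and 2.71 CPM in Control against 6.50, 5.27 and 7.90 CPM after IL-33. Its log2 fold change was 0.15 ± 0.40, and -0.17 without Control 3, the lowest value. COL16A1 had 37 counts, 19 of them in IL-33 1, and the 9 counts of COL20A1 and the 7 of COL22A1 each came from a single library. COL9A2 and COL9A3 had 7 and 12 counts, and COL14A1 and COL19A1 had 1 each. COL26A1, which belongs to none of these classes, had 11.

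Control 3 differed from the other Control libraries gene by gene and not in 1 direction. On a log2 scale it lay below the mean of Controls 1 and 2 in 10 of 18 collagens, with a median of -0.09. It was lower in COL12A1 (-1.34), COL4A1 (-0.97), COL8A2 (-0.80), COL1A2 (-0.56), COL1A1 (-0.45), COL7A1 (-0.41) and COL4A2 (-0.33). It was higher in COL13A1 (0.79), COL8A1 (0.48) and COL11A1 (0.30). The median size of this deviation was 0.32 over the collagens and 0.32 over all tested genes. In the other 5 libraries the median size over the collagens was 0.16 to 0.23.

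The genes that modify, fold, export and process procollagen were mostly measured, and none of them passed the test. Of 33 listed, 30 were tested, 0 passed the test by edgeR and 0 had an unadjusted p under 0.05, beside 0% and 2.43% of all genes. The log2 fold change was above 0 in 11 of 30, with a median of -0.03, against 48.9% of all genes with a median of -0.01. In 0 of these 30 genes were the groups apart in either direction. Over all genes 4.54% had all IL-33 values higher and 3.51% had all lower. The summed level of the 33 was lower in every IL-33 library (2645 to 2670 CPM) than in any Control library (2685 to 2747 CPM). How often sums of other genes split in this way was not determined. P4HB, the common subunit of prolyl 4-hydroxylase and a disulfide isomerase, measured 823 ± 85.9 CPM in Control against 808 ± 29.3 CPM after IL-33 (SD, n = 3 each), and its catalytic partner P4HA1 286 ± 11.5 and 273 ± 7.09 CPM. SERPINH1, the collagen chaperone HSP47, measured 160 ± 9.50 and 162 ± 4.27 CPM, with a log2 fold change of 0.02 ± 0.10. CRTAP, of the prolyl 3-hydroxylase complex, measured 127 ± 5.51 and 132 ± 4.21 CPM.

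PLOD2, a lysyl hydroxylase of the telopeptides that crosslinks use, measured 406, 398 and 209 CPM in Control against 277, 326 and 351 CPM after IL-33. Control 3 was lowest, as in COL1A1 and COL4A1. TRAM2, linked to type I collagen export, measured 226 ± 16.5 and 226 ± 23.1 CPM, and LARP6, which binds collagen messengers, 64.4 ± 8.03 and 63.3 ± 2.08 CPM. BMP1, the C-propeptide protease, measured 16.0 ± 1.47 and 15.9 ± 3.12 CPM. The 4 smallest unadjusted p in this list were those of ADAMTS2, the N-propeptide protease (0.121, log2 fold change -0.52 ± 0.32), PLOD1 (0.205, 0.21 ± 0.16), P3H4 (0.213, -0.24 ± 0.19) and SEC24D (0.282, -0.19 ± 0.18). ADAMTS2 and P3H4 were highest in Control 3, at 17.2 and 49.0 CPM.

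**Figure D5:**
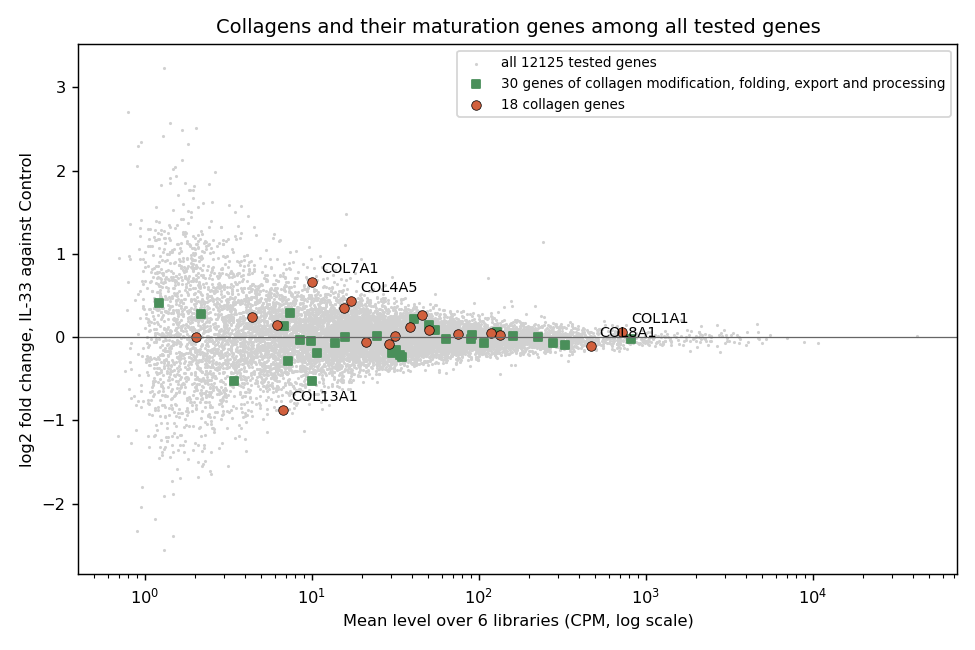
log2 fold change of IL-33 against Control (vertical axis) by mean level in CPM (logarithmic horizontal axis) for the 12125 tested genes (grey), the 18 tested collagens (orange) and the 30 tested genes of collagen modification, folding, export and processing (green squares). COL7A1 (0.66) and COL13A1 (-0.88) are the outermost collagens.

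Of 10 collagen receptors 4 were tested and 0 passed by edgeR, with 0 at an unadjusted p under 0.05, beside 2.43% of all genes. ITGB1, the shared β subunit of the collagen-binding integrins, measured 168 ± 5.99 CPM in Control against 165 ± 15.3 CPM after IL-33. Its collagen-binding α partners were low, with ITGA11 at 3.66 ± 0.703 and 5.06 ± 1.87 CPM (log2 fold change 0.46 ± 0.44) and ITGA1, ITGA2 and ITGA10 at 31, 11 and 26 counts in all. Of the discoidin domain receptors, DDR1 measured 52.4 ± 5.18 and 51.7 ± 3.58 CPM, while DDR2, which binds fibrillar collagens, had 29 counts. MRC2, the endocytic receptor for collagen fragments, measured 14.2 ± 2.65 and 17.9 ± 2.65 CPM (log2 fold change 0.33 ± 0.24). LAIR1, an inhibitory leukocyte receptor for collagen, had 0 counts, and the platelet receptor GP6 had 1.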

How the data were processed

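The authors deposited 1 table of raw counts per gene symbol for 6 libraries (RNA by TRIZOL, Lexogen QuantSeq 3′ FWD, per the labels' protocols). Per the submitters' processing notes, the tools were STAR 2.7.5a, HTSeq 0.6.1 and edgeR, and the build hg38, with no roles given. No source used here gives the annotation or strand setting of the counting. The limit of 3 counts covers counting error only.

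From these counts, 1 of 27470 rows without values was dropped. filterByExpr (count minimum 10, total minimum 15) left 12125 genes, holding 99.8% of the counts. They were scaled by TMM and tested across all genes with edgeR 4.0.16 (R 4.3.3; robust quasi-likelihood test, Benjamini-Hochberg threshold 0.05). CPM use TMM-scaled totals, and deviations a prior count of 2. Alternatives were other scalings and filters, DESeq2 1.42.0, limma-voom (3.58.1), the replicate block and each library left out.

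The procedure was tested on simulated data. Over 3 runs it found 62 of 208 simulated 1.5-fold changes (29.8%), 122 of 189 2-fold (64.6%) and 173 of 203 4-fold changes (85.2%). It also called 37 of 35775 unchanged genes (0.103%). Smaller changes could therefore be missed. Replicates differed beyond sampling noise (chi-square per degree of freedom 5.56 to 15.8).

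Positions and transcripts came from GENCODE 29 (GRCh38; 44 of 44 matched by symbol) and start sites and promoters from RefSeq (GRCh38.p14; 32 of 44 matched). The collagens at 10 CPM or more, those past the threshold and the 3 smallest p in each direction were to be described singly. The other tested members, COL12A1, COL8A2 and COL4A4, are given too. Of the other lists, the genes past the threshold, up to 4 with the smallest p and the most abundant of each role were named. Others were named after their values were seen. The collagen genes were proposed as the subject, and the lists drawn up, with earlier results of these data known, although the rule that picks the members uses symbols alone. Figures used matplotlib 3.10.9.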

Additional observations from a re-analysis of the deposited data

How the results depend on the processing

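The count of 0 collagens past the threshold held with every setting run, while the count over all genes was 3 without the low-count filter, 1 by DESeq2 and 0 to 6 with a library left out. With the replicate block 0 genes and 0 collagens were called, and the median over the collagens was 0.06; the labels do not say that numbers pair libraries, and same-numbered deviations correlated at -0.09, 0.03 and -0.14. That median ran from -0.01 to 0.13 when each library was left out in turn and was 0.15 without the low-count filter (28 of 37 collagens above 0). The difference in collagen share ran from -0.000949 to 0.00899 percentage points when computed without each library in turn. Among 122 fold changes under the other settings, 120 kept their direction; COL27A1 was -0.0137 by limma-voom and COL4A4 0.0013 without the filter. With a library left out the log2 fold change changed sign in COL1A1 (-0.0723 to 0.18), COL8A1 (-0.21 to 0.0702), COL11A1 (-0.0896 to 0.13), COL4A1 (-0.13 to 0.42), COL4A2 (-0.0515 to 0.13), COL5A1 (-0.18 to 0.10), COL6A1 (-0.0497 to 0.12), COL27A1 (-0.0914 to 0.15), COL12A1 (-0.17 to 0.57) and COL4A4 (-1.04 to 0.42). It kept its sign in COL7A1 (0.50 to 0.78), COL4A5 (0.31 to 0.54), COL1A2 (0.20 to 0.46), COL6A2 (0.13 to 0.39), COL13A1 (-1.19 to -0.58), COL5A2 (0.04 to 0.13), COL8A2 (0.01 to 0.65) and COL18A1 (-0.15 to -0.03). COL12A1, COL13A1, COL8A2 and COL4A4 gave no value at 10 CPM or more.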
